A study of Homo sapiens with 6 samples.

Results

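The serine/arginine-rich splicing factors examined here are the 10 genes SRSF1, SRSF2, SRSF3, SRSF4, SRSF5, SRSF6, SRSF7, SRSF9, SRSF10 and SRSF11. They were chosen by name from the 58780 human genes whose IDs matched GENCODE release 29. That release lists 107 transcripts for the 10 genes. Of these, 39 are protein-coding, 22 are annotated as targets of nonsense-mediated decay (NMD), 28 retain an intron and 18 are other processed transcripts. RNA was sequenced from HCT116, an established human colorectal carcinoma cell line, in 3 libraries of cells exposed to auxin for 16 h and 3 libraries of DMSO control cells. The labels give biological replicates 1, 2 and 3 in each group. Auxin is a plant hormone used to trigger the breakdown of a degron-tagged protein, and DMSO is a solvent control. The labels name neither a tagged protein nor a degron allele, and they give no time for DMSO, so no targeted gene could be checked.

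SR proteins bind exonic RNA through RNA recognition motifs and recruit spliceosome components through their arginine/serine-rich domain. Most of their genes also carry a poison exon, an exon whose inclusion brings in a premature stop codon and routes the transcript to NMD. A high level of the protein can raise inclusion of the poison exon in its own transcript, so that many SR genes limit their own output. NMD is triggered when a stop codon lies well upstream of the last exon junction.

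In every one of the 22 SRSF transcripts annotated as NMD targets, the annotated stop lay upstream of the last junction, by 95 to 1138 bases with a median of 360. This describes the annotation and is not a result of these libraries. Poison exons were taken from the annotation alone, as internal exons of an NMD transcript with no base in any protein-coding exon of the gene. This gave 14 exons in 7 genes, and none in SRSF1, SRSF2 and SRSF5. The stop of the NMD transcript lies inside 9 of the 14. It lies outside the 363-base SRSF10 exon, the 109-base SRSF11 exon and the 228-, 184- and 136-base SRSF4 exons. The sequences of 5 of the 9 are shown, among them that of the SRSF6 transcript that rose after auxin. Each line has the last 30 bases before the poison exon in the spliced transcript, then the exon up to its stop, with the stop codon in capitals. Letters were read 5′ to 3′ on the gene's strand from GRCh38.
SRSF6-202, chr20:43459153-43459420, plus strand: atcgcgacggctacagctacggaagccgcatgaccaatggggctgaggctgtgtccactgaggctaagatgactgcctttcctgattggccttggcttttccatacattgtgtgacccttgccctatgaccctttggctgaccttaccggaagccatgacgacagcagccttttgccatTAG
SRSF4-204, chr1:29159864-29160058, minus strand: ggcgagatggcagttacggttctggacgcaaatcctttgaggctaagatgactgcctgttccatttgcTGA
SRSF4-206, chr1:29165890-29166064, minus strand: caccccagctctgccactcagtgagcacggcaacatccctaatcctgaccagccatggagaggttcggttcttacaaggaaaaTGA
SRSF3-203, chr6:36599821-36600276, plus strand: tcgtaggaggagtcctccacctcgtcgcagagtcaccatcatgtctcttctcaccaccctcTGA
SRSF7-204, chr2:38748898-38749346, minus strand: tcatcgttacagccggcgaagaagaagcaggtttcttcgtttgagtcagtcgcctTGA

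The stop falls at base 150 of the 268-base SRSF6 exon, and 534 bases separate it from the last junction. In the 456-base SRSF3 exon it falls at base 32, and in the 449-base SRSF7 exon at base 26. The SRSF6-202 and SRSF4-204 exons share a run of 20 bases, tgaggctaagatgactgcct. Only the part of each exon up to its stop was compared, in the 9 exons that hold one. Among 31 pairs of these parts from different genes, the next longest shared run was 8 bases and the shortest 2. Runs past a stop were not looked for. This comparison was made after the values were seen, and SRSF4-204 itself was listed at 0 TPM in all 6 libraries. The 228-base exon of SRSF4-206 spans the whole SRSF4-204 exon, so it holds the same 20 bases. It has no stop of its own and was not among the pairs. SRSF4-206 held a mean of 0.411% of SRSF4 TPM in DMSO.

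Total expected counts, the estimated reads per gene summed over a library, ranged from 270781969 to 546128199 in DMSO and from 234037969 to 625895062 in auxin. The libraries numbered 1 were the deepest in both groups. Epithelial markers (EPCAM, CDH1, KRT8, KRT18 and KRT19) summed to between 1724 and 2374 TPM in DMSO and between 2207 and 2646 TPM in auxin, and all 5 were called higher after auxin, beside 25.4% of all genes tested. The fibroblast list summed to at most 2.77 TPM, the leukocyte list to at most 0.88 TPM with 3 of its 4 genes at 0, and the endothelial list to at most 0.06 TPM. TPM is an abundance per transcript length that sums to the same total in each library. In bulk RNA, fewer cells with a transcript and less of it per cell cannot be told apart.

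In DMSO cells, the SRSF genes ranged from 37 TPM to 217 TPM. SRSF1, which regulates splice site choice, was highest at 217 TPM ± 40.3 (SD, n = 3), followed by SRSF3 at 143 ± 11.5. SRSF9 had 110 TPM ± 14.9, SRSF6 had 96.3 ± 15.6, SRSF2 had 93.6 ± 32.9, SRSF10 had 86.5 ± 19.6 and SRSF5 had 74.8 ± 19.5. SRSF11 had 59.6 TPM ± 9.61 and SRSF7 had 59.4 ± 12.1, and SRSF4 was lowest at 36.9 ± 3.97. From SRSF9 to SRSF7, the DMSO ranges of neighbours in this order overlapped. SRSF1 stood above SRSF3, SRSF3 above SRSF9, and SRSF7 above SRSF4 without overlap. In total the 10 genes held 0.0978% ± 0.0172 of TPM in DMSO and 0.0927% ± 0.0093 in auxin (SD, n = 3 each, overlapping groups, exact two-sided permutation test p = 0.7).

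After auxin, SRSF5 was lower and SRSF7 higher at the gene level, and the 8 other genes did not pass the test. With edgeR's quasi-likelihood test at a Benjamini-Hochberg adjusted p under 0.05, the 2 calls of 10 stood beside 52.3% of the 19725 genes tested (25.4% higher and 26.9% lower). Over all genes, 5010 were called higher and 5311 lower, 6534 and 4416 with upper-quartile factors, which raised the median of all genes from 0.02 to 0.15, and 970 and 2966 on log2(TPM + 1). The median absolute log2 fold change was 0.21 over the 10 genes and 0.44 over all genes tested, and the median signed change was 0.08 against 0.02. The CPM (counts per library, scaled with TMM factors) of auxin and DMSO libraries did not overlap for 4 of the 10 genes, beside 60.3% of all genes tested.

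**Figure D1:**
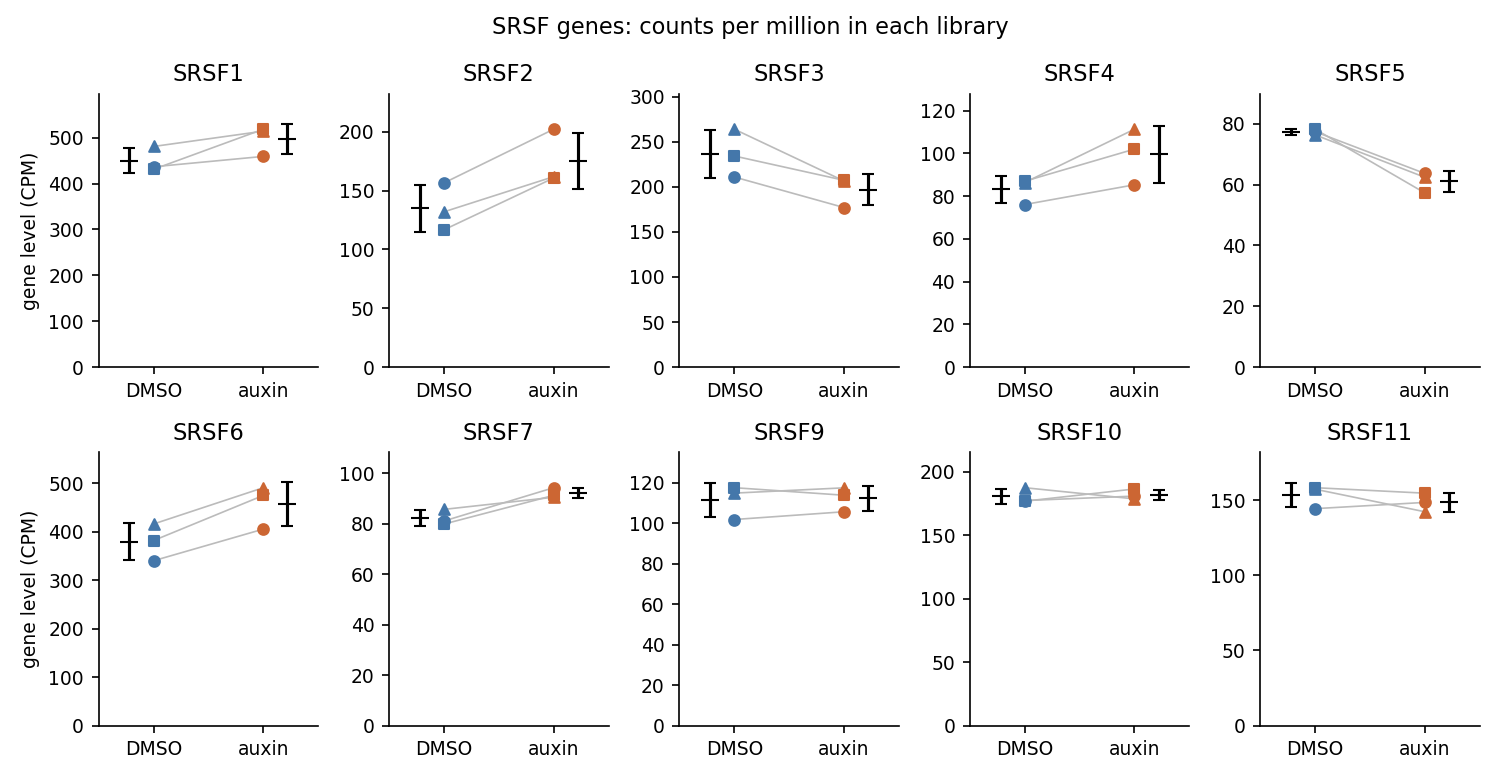
Gene level of each SRSF gene in CPM (counts scaled with TMM factors, linear axis from 0) in the 3 DMSO (blue) and 3 auxin (orange) libraries. Lines join libraries with the same replicate number, symbols mark the number, and the bars are the mean ± SD. SRSF5 is lower in all 3 auxin libraries. SRSF1, SRSF4, SRSF6, SRSF9, SRSF10 and SRSF11 show overlapping groups.

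SRSF5, an SR protein with a role in alternative splicing, was called lower. It had 77.4, 78.2 and 76.4 CPM in DMSO replicates 1, 2 and 3 and 63.7, 57.3 and 62.4 CPM in the auxin replicates. Every auxin library lay below every DMSO library, and the log2 fold change was -0.34 (SE 0.06, edgeR adjusted p = 0.00205). The call held in all 6 fits that left out a library, with adjusted p between 0.00263 and 0.0104. It was lost on log2 TPM, where limma gave adjusted p = 0.126 with a pseudocount of 1.

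SRSF7, which also takes part in mRNA export, had 81.1, 79.9 and 85.7 CPM in DMSO and 94.3, 91.3 and 90.5 CPM in auxin. The groups did not overlap, and the log2 fold change was 0.16 (SE 0.05, edgeR adjusted p = 0.0363). The call was lost in each of the 6 fits that left out a library, where adjusted p ranged from 0.0709 to 0.171. It was also lost with the DESeq2 Wald test (adjusted p = 0.15), and adjusted p ranged from 0.00267 to 0.898 over all alternatives.

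SRSF2, which binds exonic enhancers, had 156, 117 and 132 CPM in DMSO and 202, 161 and 162 CPM in auxin. These groups did not overlap, yet the log2 fold change of 0.37 (SE 0.13) had an edgeR adjusted p of 0.050001, just above the threshold. With the replicate number as a block, adjusted p was 3.1e-05, and over all alternatives it ranged from 3.1e-05 to 0.660. Among fits that left out 1 library, only that without DMSO replicate 1 called SRSF2 (edgeR adjusted p = 0.0119). The others reached up to 0.179. SRSF3, the smallest SR protein by length, had 211, 234 and 264 CPM in DMSO and 177, 207 and 206 CPM in auxin. These groups did not overlap either, and the log2 fold change of -0.26 (SE 0.10) had an edgeR adjusted p of 0.0669 without the block and 0.000372 with it, within a range of 0.000372 to 0.189 over the alternatives. Leaving out DMSO replicate 1 gave 0.0336 for SRSF3, and no other fit that left out 1 library called it (up to 0.186).

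SRSF6 and SRSF4 had log2 fold changes of 0.27 (SE 0.10) and 0.26 (SE 0.11), and SRSF1 of 0.15 (SE 0.08). Their edgeR adjusted p-values were 0.0647, 0.0787 and 0.158, and the CPM groups of each overlapped. In CPM the auxin library was higher in 3 of 3 same-numbered pairs for each of the 3 genes. In TPM it was higher in 3 of 3 pairs for SRSF6 and in 2 of 3 for SRSF1 and SRSF4. Among fits that left out 1 library, SRSF6 fell under the threshold only without auxin replicate 1 (0.0190), and so did SRSF4 (0.00849). The other such fits reached up to 0.197 for SRSF6 and 0.244 for SRSF4. SRSF9, SRSF10 and SRSF11 had log2 fold changes of 0.01, 0.01 and -0.05, with edgeR adjusted p-values of 0.912, 0.881 and 0.580. The signs of SRSF9, SRSF10, SRSF11 and SRSF1 changed under at least 1 other scaling or unit.

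The replicate numbers were taken to pair the libraries, although correlations between libraries could not show how replicates 2 and 3 pair. With the numbers as a block, 7 of the 10 genes were called in edgeR, beside 69.9% of all genes. The 5 called higher were SRSF1, SRSF2, SRSF4, SRSF6 and SRSF7 (35.5% of all genes), and the 2 called lower were SRSF3 and SRSF5 (34.4%). SRSF6 had an adjusted p of 7.9e-05 and SRSF4 of 0.000563, within ranges over the alternatives of 7.9e-05 to 0.360 and 0.000563 to 0.650. SRSF1 had 0.0144, within 0.00757 to 0.987. The block narrowed the standard errors, and the fold changes stayed close to those above.

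**Figure D2:**
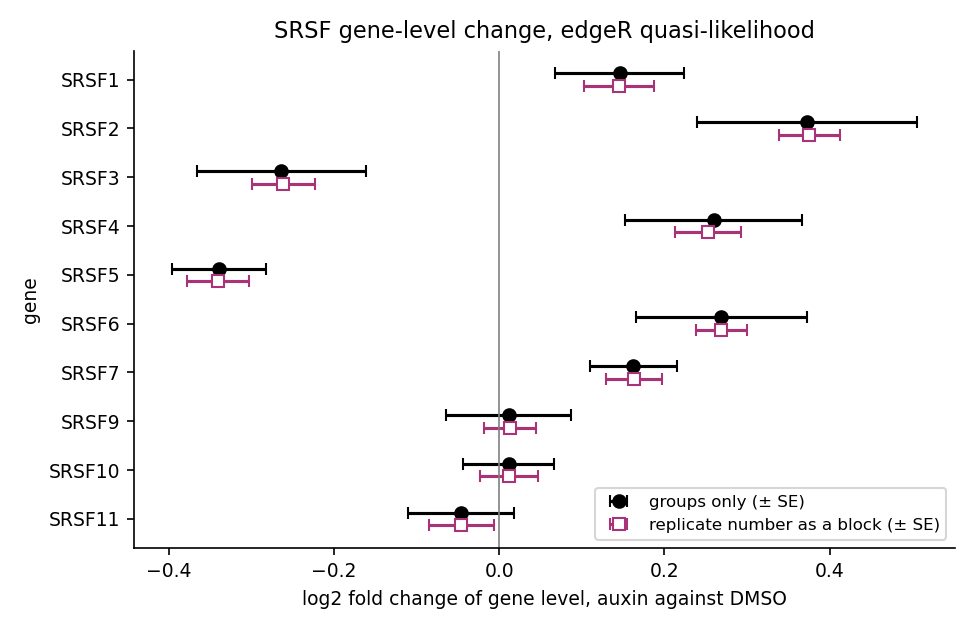
Log2 fold change of gene level, auxin against DMSO, for each SRSF gene from edgeR, with bars of ± SE. Filled circles use the groups only and open squares add the replicate number as a block. The change runs from -0.34 for SRSF5 to 0.37 for SRSF2, and the squares have narrower bars.

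At the level of single transcripts, 85 of the 107 passed the filter on low counts. The other 22 did not, among them 5 listed at 0 in all 6 libraries. In edgeR, 5 of the 85 were called, 2 higher and 3 lower, beside 19.7% of the 83072 transcripts tested (8.43% higher and 11.2% lower). Upper-quartile factors gave 10807 transcripts higher and 7781 lower over all, against 6999 and 9331. The CPM of the groups did not overlap for 19 of the 85, beside 40.3% of all. By type, 2 of 32 protein-coding transcripts were called (26.1% of all protein-coding transcripts), 1 of 15 NMD transcripts (14.9%, and 5.35% higher), 2 of 23 retained-intron transcripts (11%) and 0 of 15 processed transcripts (12.7%). An unadjusted p under 0.05 was found for 7 of the 32 protein-coding transcripts (39.9% of all of that type), 1 of 15 NMD (27.4%), 5 of 23 retained-intron (22%) and 2 of 15 processed transcripts (25.2%). With the replicate block 16 of the 85 were called, beside 27% of all transcripts.

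Among the most abundant protein-coding transcripts, taken gene by gene, only SRSF5-217, described with SRSF5, passed the test. SRSF1-201 had 104.3 TPM ± 17.3 in DMSO and 103.7 ± 8.11 in auxin (SD, n = 3 each), and SRSF9-201 had 105.3 ± 13.3 and 94.7 ± 7.26. SRSF2-202 had 60.2 TPM ± 23.9 and 70.3 ± 18.1, SRSF3-208 had 42.3 ± 7.77 and 34.1 ± 2.88, and SRSF4-201 had 34.3 ± 3.84 and 37.6 ± 3.16. SRSF7-202, SRSF10-207 and SRSF11-203 had 24.5, 26.9 and 22.6 TPM in DMSO and 25.4, 20.0 and 20.8 in auxin. For each of these 8 transcripts the TPM groups overlapped. The CPM groups of SRSF2-202 and SRSF10-207 did not overlap, and their log2 fold changes of 0.42 and -0.24 had edgeR adjusted p-values of 0.0924 and 0.092. With the replicate block, edgeR adjusted p was 0.0262 for SRSF2-202, 0.0269 for SRSF4-201 and 0.0406 for SRSF7-202, each the lowest over its alternatives, with highest values of 0.659, 0.633 and 0.880.

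Among the most abundant retained-intron transcripts, SRSF10-213, described with SRSF10, was called. SRSF2-209 had a log2 fold change of 0.71 (SE 0.23), and its edgeR adjusted p was 0.0815, 0.0175 with the block, within 0.0175 to 0.443 over the alternatives. SRSF3-206, SRSF4-205, SRSF5-212, SRSF7-211 and SRSF9-202 had edgeR adjusted p-values of 0.869, 0.779, 0.772, 0.997 and 0.545, and SRSF1-202 was below the filter. Of the most abundant NMD transcripts, SRSF6-202 was called. Among the others, SRSF3-203 and SRSF7-208 had the highest levels, 11.1 and 9.17 TPM in DMSO, with log2 fold changes of -0.11 and 0.27. Neither passed the test, and the CPM groups of both overlapped. SRSF1-207, SRSF2-208, SRSF4-206, SRSF10-215 and SRSF11-212 had edgeR adjusted p-values of 0.570 to 0.898, and SRSF5-211 and SRSF9-206 were below the filter.

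SRSF6-202, the NMD transcript with the 268-base poison exon, rose. It had 17.7, 9.28 and 9.24 CPM in DMSO replicates 1, 2 and 3 and 49.9, 26.7 and 30.4 CPM in auxin. No auxin library was as low as the highest DMSO library, and the log2 fold change was 1.57 (SE 0.36, edgeR adjusted p = 0.0299). On the TPM scale the values were 15.3, 5.41 and 5.45 in DMSO and 35.6, 14.0 and 17.1 in auxin. There the groups overlapped, because DMSO replicate 1 was above auxin replicate 2, while within same-numbered pairs the TPM was 2.33, 2.59 and 3.13 times as high in auxin. The call was lost when any library but DMSO replicate 1 was left out, where adjusted p was 0.0516 to 0.109. Without DMSO replicate 1 adjusted p was 0.0180. The call was also lost on log2 TPM, and adjusted p ranged from 8.2e-05 to 0.116 over all alternatives.

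The protein-coding transcript SRSF6-201 had 98.1, 77.3 and 87.4 TPM in DMSO and 88.2, 86.6 and 94.5 TPM in auxin. These values overlapped, and in CPM the log2 fold change was 0.21 (SE 0.16, edgeR adjusted p = 0.413). With the replicate block its adjusted p was 0.0493, the lowest in a range up to 0.901 over the alternatives. The share of SRSF6 TPM in SRSF6-202 was 13.5%, 6.54% and 5.87% in DMSO and 28.7%, 13.9% and 15.3% in auxin. The groups did not overlap, with means of 8.62% ± 4.2 and 19.3% ± 8.17 (SD, n = 3 each). The exact two-sided permutation test gave p = 0.1, the smallest that 20 assignments allow, and 0.7 after adjustment over the 14 exons. Both libraries numbered 1 had the highest share in their group, and the share difference was 8.42 percentage points in replicates 2 and 3 alone against 10.7 in all. Without auxin replicate 1 it was 6.00 percentage points.

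**Figure D3:**
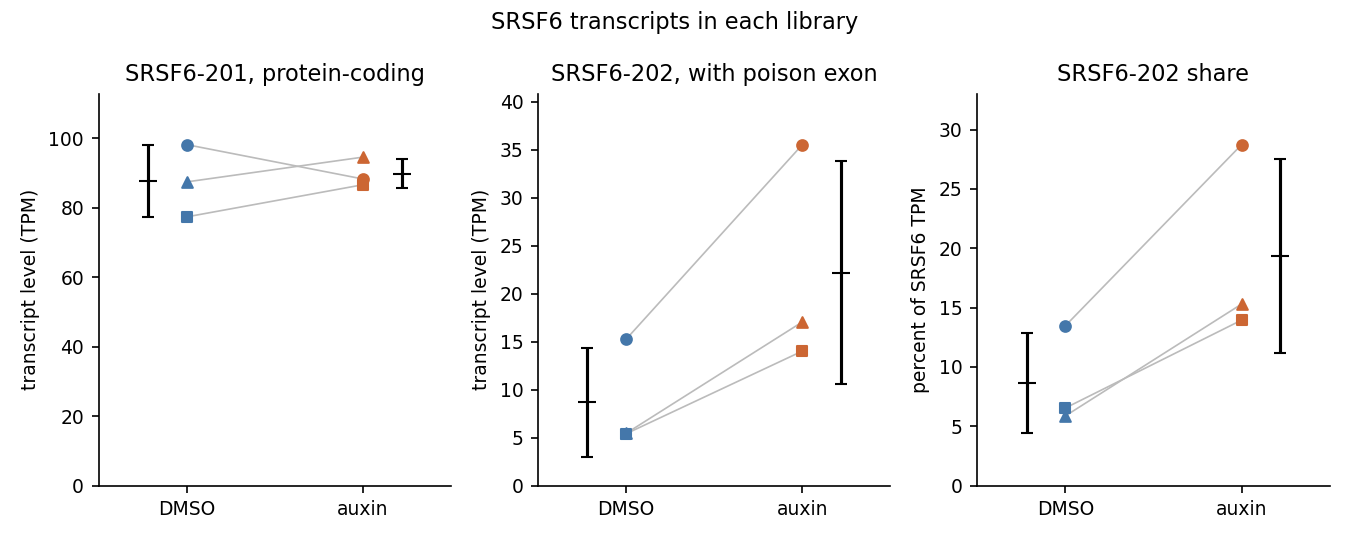
SRSF6-201 and SRSF6-202 in each library (TPM, linear axes from 0) and the share of SRSF6 TPM in SRSF6-202 (percent). Lines join same-numbered libraries, and bars are the mean ± SD. SRSF6-202 and its share are higher in auxin in 3 of 3 pairs, and SRSF6-201 in 2 of 3.

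The ratio of NMD to protein-coding TPM was also tested across genes with limma, on log2 values with a pseudocount of 0.1. Of 7 SRSF genes tested, none was called at an adjusted p under 0.05, beside 15.5% of the 3207 genes tested. An unadjusted p under 0.05 was found for 2 of the 7, beside 28.6% of all genes tested. For SRSF6 the log2 change in the ratio was 1.36 (SE 0.48, limma adjusted p = 0.113). With the replicate block adjusted p was 0.00599, and leaving out DMSO replicate 1 gave 0.0474, within a range of 0.00599 to 0.288. With the block 1 of the 7 was called, beside 21.3% of all genes. Besides SRSF6 and SRSF2, the 5 other SRSF genes had log2 changes between -0.30 and 0.08.

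Of the 5 poison exons with a mean share of at least 1%, the 4 outside SRSF6 had overlapping groups. The 456-base SRSF3 exon in SRSF3-203 had shares of 9.33%, 8.47% and 5.67% in DMSO and 11.7%, 5.76% and 7.54% in auxin, with overlapping groups. The 449-base SRSF7 exon had 5.40%, 4.15% and 3.25% in DMSO and 5.27%, 4.29% and 5.17% in auxin. The 175-base SRSF4 exon had means of 2.52% ± 0.904 and 1.87% ± 1.02, and the 363-base SRSF10 exon had 1.32% ± 0.311 and 1.21% ± 0.175 (SD, n = 3 each). Most of the SRSF4 share came from the retained-intron transcript SRSF4-208, at 2.11% in DMSO, and the NMD transcript SRSF4-206 held 0.411%. The 363-base SRSF10 exon holds no stop. Its share was split between the NMD transcript SRSF10-215, at 0.852% in DMSO, and the processed transcript SRSF10-202, at 0.471%. The other 9 exons had mean shares of at most 0.850%. The exact permutation p was at least 0.4 for all of the 14 exons except SRSF6 and the 69-base SRSF7 exon, which held 0.139% ± 0.0573 in DMSO and 0.0117% ± 0.0203 in auxin (SD, n = 3 each, exact permutation p = 0.1, and 0.7 adjusted over the 14 exons). That exon rests on SRSF7-207, which was below the filter, with at most 22.6 expected counts in a library and a posterior SD of up to 101% of the count.

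**Figure D4:**
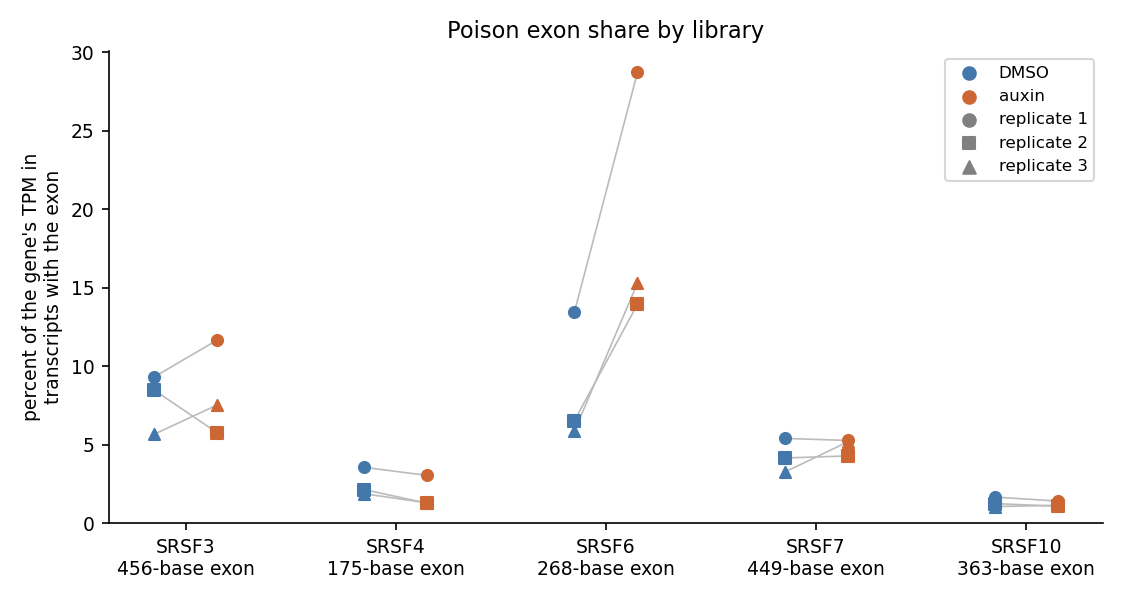
Percent of a gene's TPM in transcripts with the poison exon, per library, for the 5 exons with a mean share of at least 1%. Lines join same-numbered libraries. Shares in auxin lie above all of those in DMSO for the SRSF6 exon, and overlap for the other 4. The SRSF10 exon holds no stop.

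In DMSO, SRSF7 had the largest mean share of TPM in NMD transcripts among the 10 genes. The share was 23.4%, 19.0% and 17.2% in DMSO and 24.8%, 18.5% and 19.3% in auxin, mostly from SRSF7-208, and the groups overlapped. SRSF3 held 26.6% to 39.8% of its TPM in retained-intron transcripts in DMSO and 28.2% to 40.9% in auxin. In SRSF5, the processed transcript SRSF5-216 held 34.0% to 40.6% in DMSO and 35.1% to 39.7% in auxin.

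In SRSF2, whose NMD transcripts splice exons that are partly coding elsewhere, the NMD share was 4.93%, 5.51% and 4.31% in DMSO and 3.78%, 3.03% and 3.69% in auxin. The groups did not overlap (exact permutation p = 0.1, 0.533 adjusted over 32 shares). The NMD to protein-coding ratio changed by -0.54 in log2 (SE 0.22, limma adjusted p = 0.160). After these values were seen, the partly coding exons were examined. A 98-base SRSF2 exon held 11.4% ± 1.83 in DMSO and 8.71% ± 1.34 in auxin, and a 104-base exon 8.01% ± 1.11 and 5.44% ± 0.565 (SD, n = 3 each, no overlap, exact permutation p = 0.1 for both, 0.3 adjusted over the 6 such exons). Retained-intron transcripts hold much of both shares: in DMSO, SRSF2-206 held 7.58% of SRSF2 TPM with the 104-base exon, and SRSF2-210 held 6.47% with the 98-base exon. In SRSF1, the matching exons of SRSF1-207 had 2.60% ± 1.21 and 2.64% ± 0.839.

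SRSF2-211, a retained-intron transcript, and SRSF11-204, a protein-coding one, were named after their values were seen. SRSF2-211 had 1.76, 2.13 and 1.84 CPM in DMSO and 3.17, 2.69 and 2.77 CPM in auxin, without overlap. It was called higher with a change of 0.59 in log2 (SE 0.16, edgeR adjusted p = 0.049989, just below the threshold). The call was lost with the replicate block (0.0550) and in all 6 fits that left out a library (0.0929 to 0.15), within a range over the alternatives of 0.00460 to 0.308. SRSF11-204 had 5.11, 4.83 and 5.61 CPM in DMSO and 3.67, 3.34 and 3.63 CPM in auxin. These did not overlap, and it was called lower with a change of -0.55 in log2 (SE 0.13, edgeR adjusted p = 0.0321), a call lost in all 6 such fits (0.0536 to 0.114).

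SRSF10-213, the main retained-intron transcript of SRSF10, fell. It had 11.33, 11.32 and 11.42 CPM in DMSO and 8.65, 6.90 and 7.46 CPM in auxin, without overlap. Its log2 fold change was -0.57 (SE 0.12, adjusted p = 0.0223 in edgeR). The call was lost when any library but auxin replicate 1 was left out (0.0568 to 0.0894), and it was 0.0181 without auxin replicate 1. The share of SRSF10 TPM in retained-intron transcripts was 3.95%, 3.76% and 3.35% in DMSO and 2.75%, 2.05% and 2.42% in auxin. Their ratio to protein-coding TPM changed by -0.62 in log2 (SE 0.21, limma adjusted p = 0.0799), and with the block adjusted p was 0.0334, within 0.0213 to 0.266. The block called 1 of 7 genes, beside 33% of all. Of the 7 SRSF genes in that test none was called, beside 20.9% of the 5309 genes tested, and 1 of 7 had an unadjusted p under 0.05, beside 30.9% of all.

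SRSF5-217, the most abundant protein-coding transcript of SRSF5, fell with the gene. It had 35.7, 41.2 and 43.4 CPM in DMSO and 24.5, 27.6 and 31.4 CPM in auxin, without overlap. Its log2 fold change was -0.53 (SE 0.13, adjusted p = 0.0346 in edgeR). The call held without DMSO replicate 1 and without auxin replicate 3, and was lost without any other library (adjusted p up to 0.121).

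**Figure D5:**
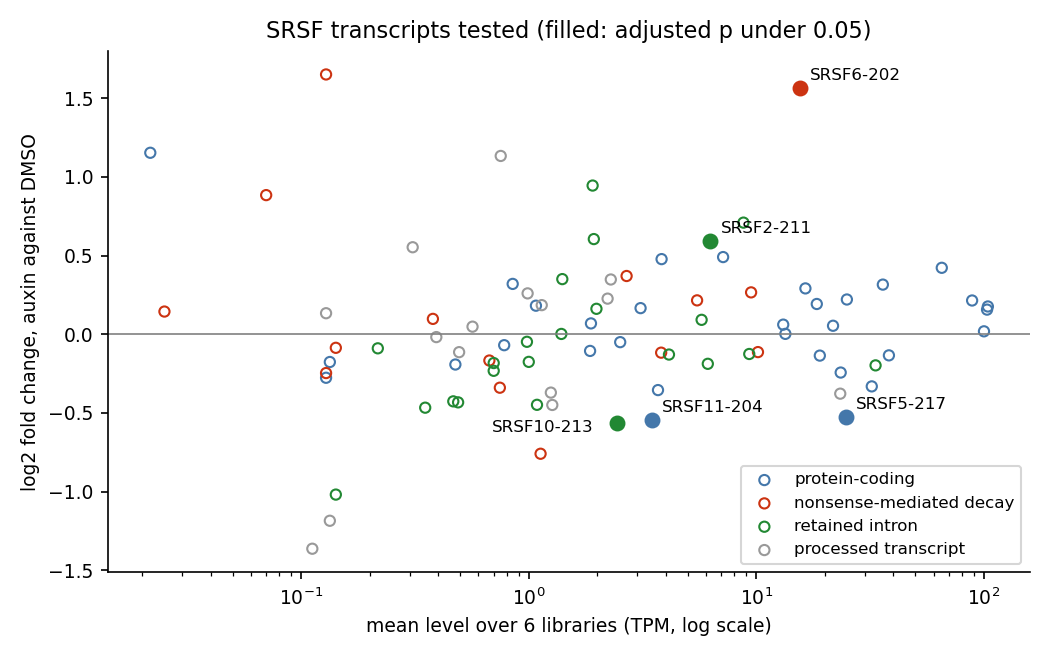
Log2 fold change against mean TPM (log axis) for the 85 SRSF transcripts tested, coloured by GENCODE type. Filled points had an edgeR adjusted p under 0.05. SRSF6-202 lies at 1.57, and the 4 other called transcripts lie between -0.57 and 0.59.

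Genes around the SR proteins were described from lists. Of 36 other SR and SR-related genes tested, 8 were called higher and 13 lower in edgeR, beside 25.4% and 26.9% of all genes. SRRM2, a large nuclear speckle protein, had a log2 fold change of 0.98 (SE 0.15) and SRSF8 of 0.49 (SE 0.06). U2AF2, which binds the polypyrimidine tract, had -1.28 (SE 0.10) and SCAF1 had -2.53 (SE 0.12). With the replicate block 15 were called higher and 15 lower, beside 35.5% and 34.4% of all genes. In the NMD ratio, 5 of 24 were called higher and 1 lower, beside 11.2% and 4.37% of all genes. Among the higher were DDX23, a spliceosomal helicase, at 2.13 and BCLAF1 at 1.43, and SRRM2 was the lower one at -3.30.

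Of the 7 genes for SR protein kinases and the import receptor TNPO3, 3 were called higher and 1 lower, beside 25.4% and 26.9% of all genes, and with the replicate block 3 and 2, beside 35.5% and 34.4%. CLK1, CLK4 and SRPK1, which phosphorylate SR proteins, had log2 fold changes of 0.68, 0.91 and 0.61, and CLK3 had -0.63. Of 10 NMD factors, 2 were called higher and 3 lower, beside the same 25.4% and 26.9%. UPF1, the helicase at the centre of NMD, had -1.55 (SE 0.10), SMG9 had -0.99 (SE 0.13) and UPF3A had -0.26 (SE 0.09), while SMG8 had 0.53. With the replicate block the NMD factors had 5 higher and 5 lower, beside 35.5% and 34.4% of all genes. The part of these genes in the SRSF6 result was not tested.

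Some SRSF genes overlap other annotated genes, and whether counting used strand is not given in the sources used here. SRSF9 shares 2082 bases with GATC on the opposite strand, whose log2 fold change was 1.14. SRSF2 shares 1510 bases with MFSD11 on the opposite strand, whose log2 fold change was 0.26 (edgeR adjusted p = 0.0362). It also shares 3260 bases with AC005837.2 on the opposite strand, at 0.0967 TPM in DMSO. SRSF1 shares 3887 bases with AC015813.2 on its own strand, at 1.44 TPM in DMSO. There are 3 pseudogenes named after these genes in the annotation, and the highest level of any of them in a library was 0.02 TPM.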

How the data were processed

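RNA-seq libraries were rRNA-depleted, stranded and paired-end, per the labels' protocols. Expected counts, estimated reads per gene or transcript, and TPM were deposited by the authors per library, per the file headers in the layout of RSEM. The headers also give a posterior SD of each count. GRCh38, hg38, STAR, DESeq2 and bcl2fastq 2.20 are named in the submitters' processing notes with no role. Counter version, annotation and strand setting are not given in the sources used here. Of 59526 gene IDs and 207507 transcript IDs, 58780 and 206761 matched GENCODE release 29, and the rest were left out.

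Expected counts were rounded and tested with edgeR 4.0.16 (filterByExpr, TMM, glmQLFit, glmQLFTest, R 4.3.3). Type ratios were tested with limma 3.58.1 on log2((class TPM + 0.1)/(coding TPM + 0.1)) in genes with a mean of at least 1 TPM coding and 0.1 TPM of the class. Calls had an adjusted p under 0.05 over all features. The SE of a log2 fold change came from the F statistic. CPM are counts scaled with TMM factors. Shares were compared with exact permutation tests over 20 assignments, which cannot give p under 0.1. Deviations from group means correlated at 0.861, 0.634 and 0.607 in same-numbered libraries, above the 0.1 set for using the block. DMSO replicate 2 with auxin replicate 3 also passed it at 0.398, and DMSO replicate 3 with auxin replicate 2 at 0.607. The correlations therefore set replicate 1 apart but cannot show how replicates 2 and 3 pair. The block takes the numbers as given. The labels call them biological replicates and do not name separate cultures, so p-values measure the spread between these samples. DESeq2 1.42.0, other scalings, filters, units, the replicate block and leaving out each library were alternatives.

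Procedures were tested on simulated data. The transcript test first found none of the 2-fold differences put in. Runs with larger differences and with more transcripts altered were added after that, and found part of the larger ones and few of the 2-fold ones. In the run with larger differences, the share of false calls was above the 0.05 that the threshold stands for. That run altered far fewer transcripts than were called here, so it does not measure the share of false calls here. Transcript calls near the threshold may still be less certain than their adjusted p. Because few of the 2-fold differences were found, a transcript that did not pass is not shown to be unchanged. The genes, gene lists and alternatives were chosen with earlier results of these data known. All 10 genes are named, with the most abundant transcript of each type per gene and any called transcript with an absolute log2 change of at least 1.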

Additional observations from a re-analysis of the deposited data

How the results depend on the processing

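The replicate block changed the calls of SRSF1, SRSF2, SRSF3, SRSF4, SRSF6, SRSF6-201, SRSF2-202, SRSF4-201, SRSF7-202, SRSF2-209, SRSF2-211, the SRSF6 NMD ratio and the SRSF10 retained-intron ratio given above, and no other call of an SRSF gene, transcript or ratio with a p-value given above. The cause was not tested for any change below. SRSF genes called higher, 1 in the report, were 5 with the replicate block, with upper-quartile factors and in replicates 2 and 3 only, 2 with DESeq2 size factors and 0 with library size only and on log2 TPM. Those called lower, also 1, were 2 with the block, library size only, no filter and replicates 2 and 3 only, and 0 on log2 TPM.

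On log2(TPM + 1), 970 genes were called higher and 2966 lower, and on log2(TPM + 0.1), 1017 and 3223, against 5010 and 5311. SRSF transcripts called higher, 2 in the report, were 1 with DESeq2 size factors and without a filter, 10 with upper-quartile factors, 6 with the DESeq2 Wald test and with counts divided by assignment overdispersion, 0 on log2 TPM, 11 with the block and 4 in replicates 2 and 3 only. Those called lower, 3 in the report, were 0 with upper-quartile factors, 5 with the Wald test and the block, and 1 on log2 TPM. All transcripts called higher, 6999 in the report, were 10807 with upper-quartile factors, 2553 on log2 TPM and 10666 with the block.

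Genes with a higher NMD ratio, 358 in the report, were 630 with a pseudocount of 1 and 158 with a minimum of 0.5 TPM. Those with a lower one, 140, were 81 with that minimum and 231 with the block. An SRSF gene (1 of 7) had a higher NMD ratio with the block and in replicates 2 and 3 only. Genes with a lower retained-intron ratio, 90, were 288 with a pseudocount of 1, 54 with 0.01, 51 with the 0.5 TPM minimum, 345 with the block and 192 in replicates 2 and 3 only, and 1 SRSF gene was among those called with a pseudocount of 1 and with the block. Genes with a higher one, 1021, were 665 with that minimum.

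Leaving out 1 library gave 3876 to 4979 genes higher, 4493 to 5575 lower, 0 to 2 SRSF genes higher and 1 to 2 lower. It gave 3274 to 5395 transcripts higher, 5626 to 8883 lower, 0 to 2 SRSF transcripts higher and 0 to 2 lower. NMD ratios were higher in 238 to 314 genes and lower in 63 to 105, with 0 to 1 SRSF genes higher. Retained-intron ratios were higher in 782 to 1071 genes and lower in 37 to 125.

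Some signs changed. With upper-quartile factors, log2 fold changes were 0.076 for SRSF11, 0.067 for SRSF3-203, 0.015 for SRSF10-215, 0.064 for SRSF2-208, 0.096 for SRSF4-206, 0.053 for SRSF5-212 and 0.047 for SRSF3-208. With library size only they were -0.076 for SRSF9 and -0.077 for SRSF10, and with no filter -0.010 and -0.012, and -0.013 for SRSF7-211. On log2(TPM + 1) they were -0.14 for SRSF9, -0.0072 for SRSF1 and -0.15 for SRSF10, and on log2(TPM + 0.1) -0.14, -0.0072 and -0.16, with -0.15 for SRSF9-201 and SRSF7-211, -0.12 for SRSF11-203 and -0.0068 for SRSF9-202. With the block SRSF7-211 had -0.0022. In replicates 2 and 3 only, SRSF9 had -0.0085, SRSF9-201 -0.013 and SRSF7-211 -0.19. When 1 library was left out, lowest and highest values were -0.047 and 0.057 for SRSF9, -0.024 and 0.027 for SRSF10, -0.24 and 0.021 for SRSF3-203, -0.14 and 0.60 for SRSF1-207, -0.32 and 0.020 for SRSF2-208, and -0.38 and 0.074 for SRSF4-206. They were -0.062 and 0.070 for SRSF9-201, -0.086 and 0.18 for SRSF11-203, -0.12 and 0.065 for SRSF7-211, -1.70 and 0.12 for SRSF4-205, -0.36 and 0.027 for SRSF5-212, and -0.58 and 0.14 for SRSF3-206. Every library held at least 234037969 expected counts, and 3 replicates a group bound the permutation p at 0.1.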
